A study of Mus musculus with 48 samples.

Results

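The genes described here encode 9 proteins of the tricarboxylic acid cycle in mouse liver: citrate synthase (Cs), the alpha and beta subunits of the NAD-dependent isocitrate dehydrogenase (Idh3a and Idh3b), the first and second components of the 2-oxoglutarate dehydrogenase complex (Ogdh and Dlst), the alpha subunit of succinyl-CoA ligase (Suclg1), its GDP-specific beta subunit (Suclg2), fumarate hydratase (Fh1) and the mitochondrial malate dehydrogenase (Mdh2). They were chosen by name, with earlier results of these data known. Each was read from its single-symbol probe set of highest mean over all arrays. All 9 were among the 22180 genes with such a probe set, and all 9 were among the 16926 tested after a filter on low values. Total liver RNA was hybridized to Affymetrix expression arrays, 1 array for each of 48 mice.

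A diet such as 5/20/75 is named by the shares of its energy, in percent, that came from protein, from carbohydrate and from fat, and 20 combinations of composition and energy level held 1 to 4 mice each. High energy was fed at 5/20/75, 5/48/48, 5/75/20, 14/29/57, 14/57/29, 23/38/38, 23/65/12, 33/20/47, 33/47/20, 42/29/29 and 60/20/20, medium energy at 14/29/57, 14/57/29, 23/38/38, 33/20/47, 33/47/20 and 42/29/29, and low energy at 23/38/38, 42/29/29 and 60/20/20. There were 5 mice on low, 14 on medium and 29 on high energy, and 10, 9, 9, 9, 5 and 6 mice on 5%, 14%, 23%, 33%, 42% and 60% protein. All mice ate their diet freely from 3 weeks of age and were culled at 15 months. Each came from a different cage, so that mice are independent animals. The labels gave no strain and no sex for single mice, although both sexes were housed. The mean level of Y-linked genes minus that of Xist, a marker of sex, lay between 2.48 and 4.88 or between -8.49 and -3.55. Of the combinations with several mice, high energy 33/47/20 held positive values alone. High energy 33/20/47, high energy 23/65/12 and medium energy 42/29/29 held negative values alone. The main models had no term for sex, and this Y-linked minus Xist value was a covariate in an alternative. The 10 mice on 5% protein all ate high energy diets, so their protein share and energy level cannot be told apart except through the model.

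The tricarboxylic acid cycle oxidizes acetyl-CoA in the mitochondrial matrix and passes the electrons to the respiratory chain as NADH and reduced ubiquinone. In the liver it also receives the carbon skeletons of amino acids, which enter as 2-oxoglutarate, succinyl-CoA, fumarate and oxaloacetate, and it releases malate and citrate for gluconeogenesis and lipid synthesis. The comparisons asked how the expression of its enzymes followed the macronutrients and the energy level of the diet.

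Values are log2 levels as deposited, and a level of 1 probe set was never set against that of another. The interquartile range of an array, a measure of the spread of its own values, lay between 2.78 and 3.63. It averaged 3.48 ± 0.13 (SD, n = 10) on 5% protein, 3.30 ± 0.17 (SD, n = 9) on 14%, 3.19 ± 0.27 (SD, n = 9) on 23%, 3.17 ± 0.14 (SD, n = 9) on 33%, 3.21 ± 0.27 (SD, n = 5) on 42% and 3.16 ± 0.20 (SD, n = 6) on 60%. Because this range was widest on 5% protein, the protein slopes of the 9 genes are given without and with it as a covariate. The mean of 6 measured hepatocyte markers was between 11.83 and 12.19 in 47 of 48 arrays. The remaining array, from the single medium energy 14/29/57 mouse, stood apart: its mean correlation with the other arrays was 0.920, against 0.944 for the next lowest. Its hepatocyte markers averaged 11.25, its 5 macrophage markers 9.84 (5.33 to 8.41 in the others) and its 5 endothelial markers 8.16 (5.43 to 7.43 in the others). In this mouse Idh3b, Dlst, Suclg1, Suclg2, Fh1 and Mdh2 were at their lowest levels of all 48 mice. In bulk liver RNA, fewer cells of a type and less RNA per cell cannot be told apart.

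Fh1, whose product hydrates fumarate to malate, was the 1 member of 9 whose level rose with dietary protein at the threshold of an adjusted p of 0.05. The windows of 250 bases before the transcription starts of Fh1, Suclg1 and Cs are shown because these 3 genes span the responses described here: Fh1 rose with protein, Suclg1 followed the array spread most closely, and Cs had the largest carbohydrate for fat slope. They come from RefSeq, build GRCm38.p6, and run 5′ to 3′ on the strand of the gene. Capitals mark the CCAAT box in either orientation (CCAAT or ATTGG), and each window ends at the last base before the start.
Fh1 (chr1:175625636-175625885, minus strand): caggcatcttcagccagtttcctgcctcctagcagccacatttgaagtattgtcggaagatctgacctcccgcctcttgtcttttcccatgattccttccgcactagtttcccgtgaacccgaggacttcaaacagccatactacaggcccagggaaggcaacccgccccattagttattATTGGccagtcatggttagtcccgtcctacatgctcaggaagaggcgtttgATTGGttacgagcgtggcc
Suclg1 (chr6:73248255-73248504, plus strand): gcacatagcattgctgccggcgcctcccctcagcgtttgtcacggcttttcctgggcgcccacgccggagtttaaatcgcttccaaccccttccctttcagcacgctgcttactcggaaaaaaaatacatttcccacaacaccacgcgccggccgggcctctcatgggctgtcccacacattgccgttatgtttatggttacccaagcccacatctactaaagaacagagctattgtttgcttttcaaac
Cs (chr10:128337477-128337726, plus strand): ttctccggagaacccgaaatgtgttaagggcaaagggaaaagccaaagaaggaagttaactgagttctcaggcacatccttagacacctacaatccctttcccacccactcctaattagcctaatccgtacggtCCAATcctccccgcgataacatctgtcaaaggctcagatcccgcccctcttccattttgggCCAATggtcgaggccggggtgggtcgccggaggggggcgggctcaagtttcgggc

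The window of Fh1 held 2 CCAAT boxes on the strand opposite to the gene, with first bases at -70 and -19 relative to the start. The window of Cs held 2 on its own strand, with first bases at -116 and -55, and the window of Suclg1 held none. RefSeq windows matched 8 of the 9 members, and those of Cs, Idh3b, Ogdh, Suclg2 and Fh1 (5 of 8) held a CCAAT box in at least 1 listed window, as did 37.5% of all 27025 genes with a window (33.8% of all 32851 windows). The 4 other motifs, searched on both strands, were those of NRF1 (CGCATGCG), ESRRA (AAGGTCA), GABPA (CCGGAAGT) and YY1 (AAGATGGCG), factors known for regulating nuclear genes of mitochondria. The letters of NRF1 were in the windows of 1 of the 8 members, Ogdh, at -14 and -35 in the overlapping windows of 2 of its 6 listed starts, and in those of 1.75% of all genes. Those of ESRRA, GABPA and YY1 were in 0 of the 8 members and in 4.70%, 3.23% and 0.710% of all genes. These are matches of letters in a short window, and nothing is drawn from them about the factors.

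The lowest, median and highest log2 level of Fh1 were 8.83, 9.06 and 9.97 on 5% protein, 8.51, 9.49 and 10.13 on 14%, 9.34, 9.64 and 10.59 on 23%, and 9.41, 10.22 and 10.43 on 33%. The 5 mice on 42% protein had 9.79, 9.90, 10.04, 10.14 and 10.55, and the lowest, median and highest on 60% were 9.99, 10.15 and 10.45. Levels climbed between 5% and 33% protein and were similar from there on, and the 6 mice on 60% protein all lay above the 10 on 5%. Fh1 was the 1 member with such a separation, which 0.874% of all genes tested showed in either direction and 0.289% with the 60% mice higher. Its mean was 10.22 ± 0.19 (SD, n = 6) on 60% protein and 9.22 ± 0.36 (SD, n = 10) on 5%.

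**Figure D1:**
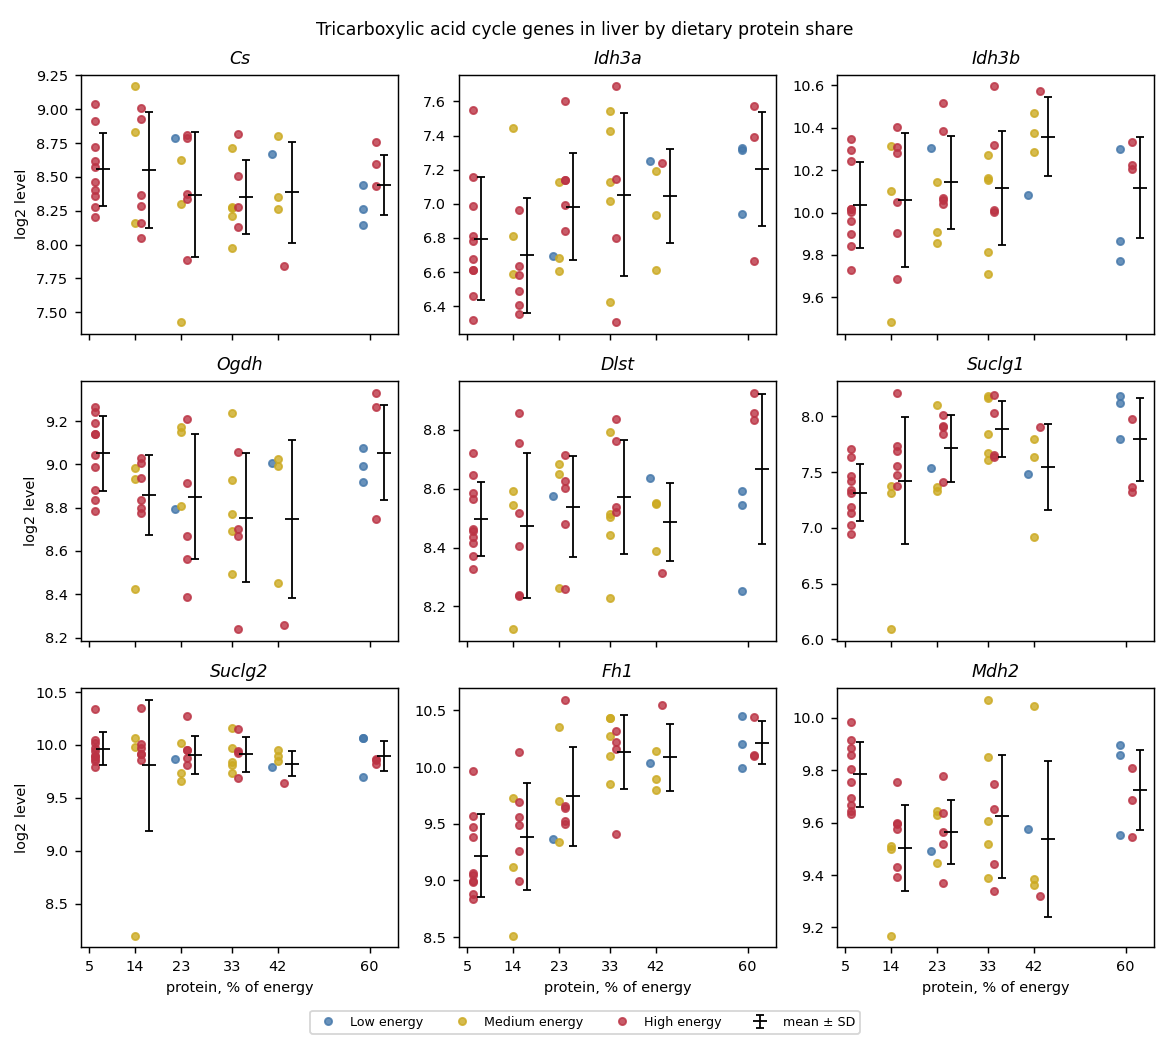
Log2 level of each of the 9 genes (vertical axis) against the protein share of dietary energy (horizontal axis, percent) in 48 mice, with 1 point per mouse coloured by energy level and a black bar for the mean ± SD of each share. The points of Fh1 climb from 5% to 33% protein and all 6 mice on 60% lie above all 10 on 5%. Suclg1 and Suclg2 show 1 low point each, the medium energy 14/29/57 mouse at 6.09 and 8.20.

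In a linear model over all 48 mice with the carbohydrate for fat exchange and the energy level as further terms, Fh1 rose by 0.23 ± 0.037 (SE, n = 48) log2 units for every 10 percentage points of energy given to protein at the equal expense of carbohydrate and fat (limma adjusted p = 0.000114). This amounts to 2.39-fold over the 55 points between the lowest and highest share. With the array interquartile range in the model the slope was 0.16 ± 0.031 (SE, n = 48), or 1.82-fold over 55 points (limma adjusted p = 0.00561). Among the genes tested, 7.01% changed with protein in either direction, 3.37% rose and 3.65% fell without that covariate, and 0.668% changed, 0.449% rose and 0.219% fell with it. Against that background, 1 of 9 members rose and 0 fell in both models. An unadjusted p under 0.05 was reached by 5 of 9 members and 4510 of 16926 genes without the covariate. With the covariate, 2 of 9 members and 1762 genes reached it. Fh1 passed the threshold in all 48 fits that left out 1 mouse each, with slopes of 0.21 to 0.25.

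Slopes of Fh1 for protein replacing 1 macronutrient alone were taken from the same additive fit. They differ only through the carbohydrate for fat slope of Fh1, 0.033 ± 0.040 (SE, n = 48), and are not separate tests of the rise. Replacing carbohydrate alone gave a slope of 0.21 ± 0.040 (SE, n = 48) and replacing fat alone one of 0.25 ± 0.043 (SE, n = 48), with limma adjusted p of 0.00374 and 0.000738. In the 29 mice on high energy the slope was 0.21 ± 0.040 (SE, n = 29; limma adjusted p = 0.00289). The call depended on the lowest share: without the 10 mice on 5% protein the slope was 0.20 ± 0.047 (SE, n = 38), and Fh1 no longer passed (limma adjusted p = 0.0754), when 14 genes passed in all. Within the 5% diets, Fh1 read 8.88 and 8.99 on 5/20/75, then 8.83, 8.98, 9.07 and 9.47 on 5/48/48, and 9.05, 9.38, 9.56 and 9.97 on 5/75/20. The mice with the most carbohydrate tended to the upper end of that range, but the first diet held 2 mice and the groups on 5/48/48 and 5/75/20 overlapped.

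Of the markers of other cell types, 1 passed the test for protein. This was Col1a1, a collagen gene of stellate cells and fibroblasts and 1 of 5 stellate cell markers, which fell by 0.32 ± 0.091 (SE, n = 48) log2 units per 10 points (limma adjusted p = 0.0278). With the array spread in the model the slope of Col1a1 was -0.17 ± 0.086 (SE, n = 48) and no longer passed (limma adjusted p = 0.486). The mean of the 5 stellate cell markers had a lowest, median and highest value of 4.55, 5.09 and 5.30 on 60% protein and 5.24, 5.75 and 7.29 on 5%, so the ranges overlapped a little. The 5 macrophage markers had 5.68, 6.23 and 6.96 on 60% and 5.49, 6.74 and 7.45 on 5%, and the 5 endothelial markers 6.25, 6.55 and 6.87 on 60% and 6.24, 7.06 and 7.43 on 5%. None of the macrophage, endothelial, lymphocyte, cholangiocyte or hepatocyte markers was called in either model (limma). Without the array spread, the slopes of all 5 stellate cell, 5 macrophage, 5 endothelial and 4 lymphocyte markers were negative. Their medians were -0.10, -0.11, -0.079 and -0.13, and with the array spread -0.078, -0.036, -0.016 and -0.081, where 1 endothelial marker was positive. Without it, 5 of 6 hepatocyte and 2 of 4 cholangiocyte markers were negative. The part of these cells in the slope of Fh1 was not tested.

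The other 8 members are given in the order of the cycle. Cs, which condenses acetyl-CoA with oxaloacetate, averaged 8.44 ± 0.22 (SD, n = 6) on 60% protein and 8.56 ± 0.27 (SD, n = 10) on 5%. Its slope of -0.029 ± 0.032 (SE, n = 48) did not pass (limma adjusted p = 0.569) and was 0.034 ± 0.026 (SE, n = 48) with the array spread as a covariate. The sign of the Cs slope therefore depended on that covariate.

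Idh3a carries the catalytic site of the enzyme that forms 2-oxoglutarate from isocitrate. Its lowest, median and highest levels were 6.32, 6.73 and 7.55 on 5% protein, 6.35, 6.59 and 7.44 on 14%, 6.61, 6.995 and 7.60 on 23%, 6.31, 7.13 and 7.69 on 33%, and 6.67, 7.32 and 7.58 on 60%, while the 5 mice on 42% had 6.61, 6.93, 7.19, 7.24 and 7.25. The medians were higher from 23% protein upward, yet every share overlapped every other. The slope was 0.092 ± 0.035 (SE, n = 48; limma adjusted p = 0.0878), and 0.072 ± 0.037 with the array spread (limma adjusted p = 0.507). Idh3b, a subunit that supports the activity of Idh3a, averaged 10.12 ± 0.24 (SD, n = 6) on 60% protein and 10.03 ± 0.20 (SD, n = 10) on 5%, with a slope of 0.050 ± 0.024 (SE, n = 48; limma adjusted p = 0.178), and 0.036 ± 0.026 with the array spread (limma adjusted p = 0.695).

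Ogdh and Dlst belong to the complex that converts 2-oxoglutarate to succinyl-CoA. Ogdh, the decarboxylating component, averaged 9.05 ± 0.22 (SD, n = 6) on 60% and 9.05 ± 0.17 (SD, n = 10) on 5%, with lower means of 8.75 at 33% and 42%, and its slope was -0.018 ± 0.027 (SE, n = 48; limma adjusted p = 0.678). The slope of Ogdh was positive with the array spread, at 0.033 ± 0.023 (limma adjusted p = 0.666). Dlst, the lipoate-bearing core, had the smallest range of the 9 genes over all mice, 0.80 log2 units between 8.12 and 8.93. It averaged 8.67 ± 0.25 (SD, n = 6) on 60% and 8.50 ± 0.13 (SD, n = 10) on 5%. Its slope was 0.043 ± 0.019 (SE, n = 48; limma adjusted p = 0.142), and with the covariate it was 0.069 ± 0.019 (limma adjusted p = 0.0703), the second smallest p among the 9 genes in that model.

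Succinyl-CoA ligase makes GTP or ATP from succinyl-CoA, and Suclg1 encodes the alpha subunit common to both forms. The lowest, median and highest levels of Suclg1 were 6.94, 7.33 and 7.71 on 5% protein, 6.09, 7.47 and 8.21 on 14%, 7.33, 7.85 and 8.10 on 23%, 7.61, 7.85 and 8.19 on 33%, and 7.32, 7.89 and 8.18 on 60%, and the 5 mice on 42% had 6.92, 7.48, 7.63, 7.80 and 7.90. As with Fh1 the medians were higher from 23% protein upward, but the mice on 60% and on 5% overlapped. The slope was 0.095 ± 0.037 (SE, n = 48; limma adjusted p = 0.0941), and 0.017 ± 0.029 with the array spread in the model (limma adjusted p = 0.892). Suclg1 passed in 2 of 48 fits that left out 1 mouse, without replicate 1 or replicate 2 of high energy 60/20/20 (slopes of 0.12, limma adjusted p = 0.0343 and 0.0247), and Idh3a in 1, without the same replicate 1 (slope of 0.12, limma adjusted p = 0.0323).

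Suclg2, the beta subunit of the GTP form, averaged 9.90 ± 0.14 (SD, n = 6) on 60% protein and 9.96 ± 0.15 (SD, n = 10) on 5%, with a slope of 0.0030 ± 0.028 (SE, n = 48; limma adjusted p = 0.956), and 0.010 ± 0.031 with the array spread (limma adjusted p = 0.944). Without the medium energy 14/29/57 mouse the slope was -0.023 (limma adjusted p = 0.360). A second probe set of Suclg2 correlated with the first at r = 0.62 over the 48 mice and had a slope of 0.073 ± 0.043 (SE, n = 48; limma adjusted p = 0.258). Neither probe set was called. Mdh2 regenerates oxaloacetate from malate. Its lowest, median and highest levels were 9.63, 9.78 and 9.98 on 5% protein and 9.17, 9.51 and 9.75 on 14%, and its means were 9.78, 9.50, 9.56, 9.62, 9.54 and 9.72 from the lowest share to the highest. The means of Mdh2 were thus highest at both ends of the protein scale, and its linear slope was -0.0053 ± 0.021 (SE, n = 48; limma adjusted p = 0.887). The slope of Mdh2, too, was positive with the array spread, at 0.019 ± 0.021 (limma adjusted p = 0.826).

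**Figure D2:**
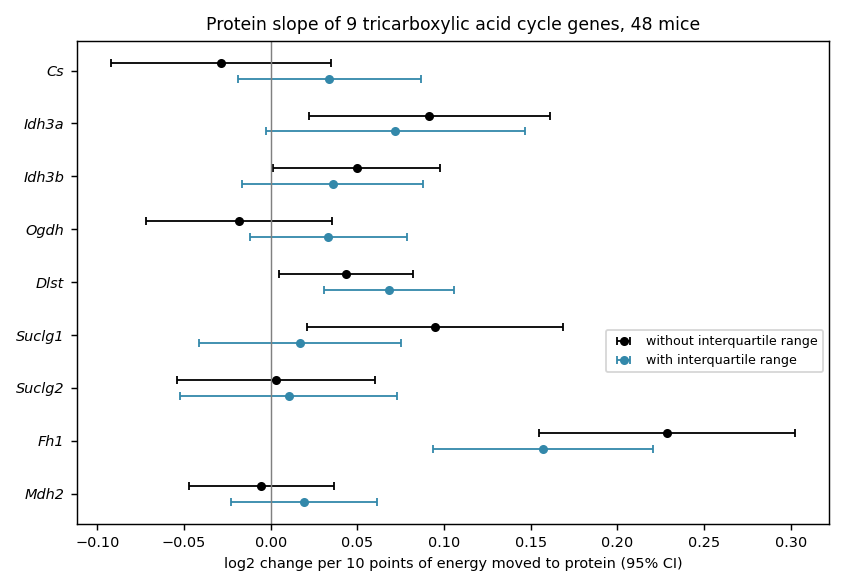
Protein slope of each gene (horizontal axis, log2 change per 10 points of energy given to protein) with its 95% confidence interval, from the model without the array interquartile range (black) and with it (blue), over 48 mice. Fh1 lies farthest to the right in both models, at 0.23 and 0.16, and the slope of Suclg1 is 0.095 without and 0.017 with the covariate.

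The median protein slope of the 9 genes was 0.043 log2 units per 10 points, against -0.0019 over all genes tested, and 0.034 against 0.0018 with the array spread in the model. Slopes were positive for 6 of 9 members without the covariate and for 9 of 9 with it, against 48.8% and 51.9% of all genes tested. With the covariate, Fh1 and Dlst alone had a 95% confidence interval that excluded 0. The 9 genes were chosen with earlier results of these data known, so these values are a description and no test of the cycle as a set.

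Some members correlated negatively and others positively with the spread of the array. The same correlation was not computed for the other genes tested, so it cannot be called particular to the members. The permutations did not take the diets into account. Over 48 mice the level of Suclg1 correlated with the array interquartile range at r = -0.75 and rho = -0.85, and that of Fh1 at r = -0.72 and rho = -0.73 (permutation p = 1e-05 for each, the smallest that 100000 permutations can give; adjusted p over the 9 genes = 4.5e-05). Ogdh and Cs went the other way, at r = 0.61 and 0.60 and rho = 0.60 and 0.52 (permutation p = 2e-05 for both r, adjusted 4.5e-05; p = 2e-05 and 0.00027 for rho, adjusted 6e-05 and 0.000607). Arrays of narrow range thus had high Suclg1 and Fh1 and low Ogdh and Cs. Mdh2 followed at r = 0.38 and rho = 0.39 (permutation p = 0.00827 and 0.00669, adjusted 0.0149 and 0.0120), and Idh3a at r = -0.33 and rho = -0.31 (permutation p = 0.0216 and 0.0322, adjusted 0.0324 and 0.0483). For Dlst, Idh3b and Suclg2, r was 0.27, -0.27 and 0.080 and did not pass after adjustment (permutation p = 0.0718, 0.0718 and 0.608, adjusted; rho = 0.22, -0.28 and 0.26 with adjusted p = 0.126, 0.0693 and 0.0903).

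Leaving out the 2 arrays of most extreme range gave r of -0.75 for Suclg1, -0.69 for Fh1, 0.58 for Ogdh, 0.49 for Cs, 0.35 for Mdh2 and -0.31 for Idh3a. Mouse numbers in the labels fall into a block under 300 (34 mice) and one over 300 (14 mice). Within these blocks r was -0.76 and -0.71 for Suclg1, -0.69 and -0.75 for Fh1, 0.48 and 0.87 for Ogdh, 0.47 and 0.88 for Cs, 0.22 and 0.71 for Mdh2 and -0.26 and -0.48 for Idh3a. Each of these 6 relations had the same sign in both blocks. Whether the interquartile range reflects the array, the RNA or the liver was not tested.

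**Figure D3:**
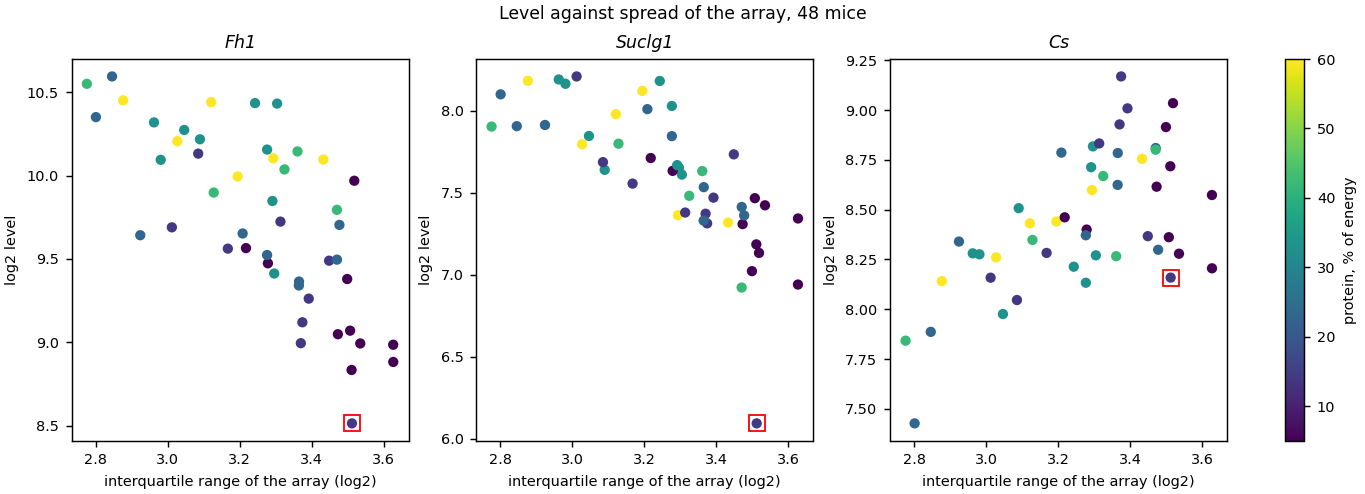
Log2 level of Fh1, Suclg1 and Cs (vertical axes) against the interquartile range of the array (horizontal axes, log2 units) in 48 mice, coloured by protein share, with the medium energy 14/29/57 mouse in a red square. Fh1 and Suclg1 decline with the range (r = -0.72 and -0.75) and Cs climbs with it (r = 0.60), and mice on 5% protein, the darkest points, gather at the widest ranges.

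Other genes of the same pathway showed where the rise with protein was found outside the 9. Of 9 further subunits of the cycle, 8 were measured, and 3 rose with protein while 0 fell. Sdhb, the iron-sulfur subunit of succinate dehydrogenase, averaged 8.97 ± 0.34 (SD, n = 6) on 60% protein and 8.12 ± 0.23 (SD, n = 10) on 5%, with a slope of 0.18 ± 0.028 (SE, n = 48; limma adjusted p = 7.82e-05). Dld, the dihydrolipoyl dehydrogenase common to the 2-oxo acid dehydrogenases, and Sucla2, the beta subunit of the ATP form of succinyl-CoA ligase, had slopes of 0.091 ± 0.024 and 0.087 ± 0.024 (SE, n = 48; limma adjusted p = 0.0159 and 0.0243). With the array spread in the model Sdhb alone of the 8 passed, at 0.12 ± 0.021 (SE, n = 48; limma adjusted p = 0.00141), while Dld and Sucla2 had slopes of 0.052 ± 0.021 and 0.079 ± 0.026 (limma adjusted p = 0.340 and 0.172). The median slope of the 8 was 0.071 without and 0.045 with the covariate.

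Of 13 measured genes for the entry of pyruvate, 0 rose and 1 fell. This was Pdk4, a kinase that switches off pyruvate dehydrogenase, which averaged 6.02 ± 1.18 (SD, n = 6) on 60% protein and 8.06 ± 0.49 (SD, n = 10) on 5%, with a slope of -0.32 ± 0.10 (SE, n = 48; limma adjusted p = 0.0434). With the covariate the slope of Pdk4 was -0.12 ± 0.087, and 0 of the 13 passed (limma adjusted p = 0.681 for Pdk4). Their median slope was -0.016 without and -0.024 with it.

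Of 17 carriers, shuttles and cytosolic partners of the cycle, 4 rose with protein and 1 fell. Got1, the cytosolic aspartate aminotransferase, rose by 0.25 ± 0.046 (SE, n = 48; limma adjusted p = 0.000630), and Mdh1, the cytosolic malate dehydrogenase, by 0.10 ± 0.022 (SE, n = 48; limma adjusted p = 0.00432). Slc25a11 and Slc25a13, the 2-oxoglutarate/malate and the aspartate/glutamate carrier, rose by 0.080 ± 0.024 and 0.071 ± 0.023 (SE, n = 48; limma adjusted p = 0.0312 and 0.0475). Got2, the mitochondrial aspartate aminotransferase, and Slc25a12, the other aspartate/glutamate carrier, did not pass, with slopes of -0.050 ± 0.028 and 0.0072 ± 0.038 (SE, n = 48; limma adjusted p = 0.236 and 0.918). Pck2, the mitochondrial phosphoenolpyruvate carboxykinase, fell by 0.20 ± 0.048 (SE, n = 48; limma adjusted p = 0.00791), with 3.81 ± 0.26 (SD, n = 6) on 60% protein and 5.15 ± 0.28 (SD, n = 10) on 5%. With the array spread in the model Got1 alone of the 17 passed, with a slope of 0.25 ± 0.050 (limma adjusted p = 0.00686). The slopes of Mdh1, Slc25a11, Slc25a13 and Pck2 were then 0.078, 0.080, 0.054 and -0.12 (limma adjusted p = 0.0958, 0.149, 0.407 and 0.242). The median slope of the 17 was -0.0098 without the covariate and -0.0039 with it.

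None of the 5 lipoylation genes, which make the lipoate that Dlst carries, passed in either model (limma), and the smallest adjusted p were 0.0718 for Lias and 0.172 for Mcat without the covariate, with slopes of 0.077 ± 0.027 and 0.061 ± 0.029 (SE, n = 48). With the covariate the slopes of Lias and Mcat were 0.030 and 0.014 (limma adjusted p = 0.743 and 0.908). Of 17 genes that stand for mitochondrial content, 1 rose, Esrra, a nuclear receptor that drives mitochondrial genes, at 0.11 ± 0.032 (SE, n = 48; limma adjusted p = 0.0265). With the covariate the slope of Esrra was 0.086 ± 0.033 (limma adjusted p = 0.279), and 0 of the 17 passed. Their median slope was 0.0019 without and 0.020 with the covariate. These lists were chosen with results of these data known, and the counts are to be read against the 7.01% and 0.668% given above.

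When carbohydrate replaced fat at a fixed protein share, 0 of the 9 genes and 0% of all genes tested passed (limma). At an unadjusted p under 0.05 stood 665 genes without and 1002 with the array spread in the model, Cs among them in both. At 5% protein the log2 levels of Cs were 8.21 and 8.28 on 5/20/75, then 8.36, 8.40, 8.57 and 8.72 on 5/48/48, and 8.46, 8.62, 8.91 and 9.03 on 5/75/20. The 4 mice on 5/75/20 lay above the 2 on 5/20/75, but the share of all genes with such a separation was not counted. Cs is given in detail for its slope in these same mice, so the levels of single diets are not separate support for it. At 33% protein and high energy Cs read 8.51 and 8.82 on 33/47/20, against 8.13 and 8.28 on 33/20/47. The Y-linked minus Xist values of these mice were 3.88 and 3.41 on 33/47/20 and -4.46 and -4.71 on 33/20/47. Sex and diet therefore cannot be told apart in this comparison. At medium energy Cs read 8.27 and 8.71 on 33/47/20, against 7.98, 8.21 and 8.28 on 33/20/47, so the groups overlapped slightly there.

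At 14% protein and high energy Cs read 8.05 and 8.93 on 14/57/29, against 8.16, 8.28, 8.37 and 9.01 on 14/29/57, and the groups overlapped. At medium energy it read 8.83 and 9.17 on 14/57/29, against 8.16 in the single mouse on 14/29/57, the one that stood apart. At 23% protein and high energy Cs read 8.34 and 8.37 on 23/65/12, against 7.89, 8.79 and 8.81 on 23/38/38. The mean there was lower with more carbohydrate, at 8.36 against 8.49. Over all 48 mice the Cs slope was 0.089 ± 0.034 (SE, n = 48) log2 units per 10 points moved from fat to carbohydrate, with an unadjusted p of 0.0131 and a limma adjusted p of 0.999. With the array spread in the model it was 0.096 ± 0.026 (SE, n = 48; unadjusted p = 0.000613, limma adjusted p = 0.706). It lay between 0.079 and 0.10 in the 48 fits without the covariate that left out 1 mouse each. The slopes of the other 8 genes lay between -0.028 for Suclg1 and 0.033 for Fh1. The median of the 9 was 0.015, against 0.0018 over all genes tested.

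No difference between energy levels passed the test for any of the 9 genes. Between high and medium energy, with the composition held in the model, 0 of 9 members and 0% of all genes passed (limma), while 1376 genes and 0 members reached an unadjusted p under 0.05. The largest difference was that of Suclg2, 0.17 ± 0.099 log2 units (SE, n = 48; 95% confidence interval -0.031 to 0.37; limma adjusted p = 0.688), and it was 0.030 without the medium energy 14/29/57 mouse. Suclg2 read 9.64, 9.91 and 10.35 at its lowest, median and highest in the 29 high energy mice and 8.20, 9.87 and 10.16 in the 14 medium energy mice. The medians were close and the ranges overlapped. The intervals allowed a difference of up to 0.41 log2 units for Suclg1, whose value was 0.15 ± 0.13 (SE, n = 48), and 0.034 without that mouse. Fh1 differed by -0.023 ± 0.13 (SE, n = 48), with a confidence interval from -0.28 to 0.24.

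The composition 60/20/20 was fed at low and at high energy to 3 mice each. Dlst read 8.25, 8.54 and 8.59 in the low energy mice, against 8.83, 8.86 and 8.93 in the high energy mice. All 3 low energy mice lay below all 3 high energy mice, which held for 1 of the 9 members and for 12.9% of all genes tested in either direction (7.25% with the low energy mice lower and 5.61% with them higher). The difference was -0.41 ± 0.16 log2 units (SE, from a fit over 48 mice; unadjusted p = 0.0168, limma adjusted p = 0.438). With the array spread in the model it was -0.28 ± 0.14 (limma adjusted p = 0.750). The interquartile ranges of these arrays were 2.88, 3.03 and 3.19 at low energy and 3.12, 3.29 and 3.43 at high energy, and their part in the difference was not tested beyond that model.

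Suclg1 read 7.80, 8.12 and 8.18 in the low energy mice, against 7.32, 7.36 and 7.98 in the high energy mice. The groups overlapped, and the difference of 0.48 ± 0.24 (SE, n = 48 in the fit; limma adjusted p = 0.497) became 0.21 ± 0.18 with the array spread. Fh1 read 9.99, 10.21 and 10.45 at low energy, against 10.10, 10.10 and 10.44 at high energy, a difference of 0.0040 ± 0.28 (SE, n = 48 in the fit; limma adjusted p = 0.997). That difference was -0.29 ± 0.23 with the array spread in the model (limma adjusted p = 0.848). None of the 9 members and 0% of all genes passed (limma), while 1710 genes and 1 member, Dlst, reached an unadjusted p under 0.05.

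**Figure D4:**
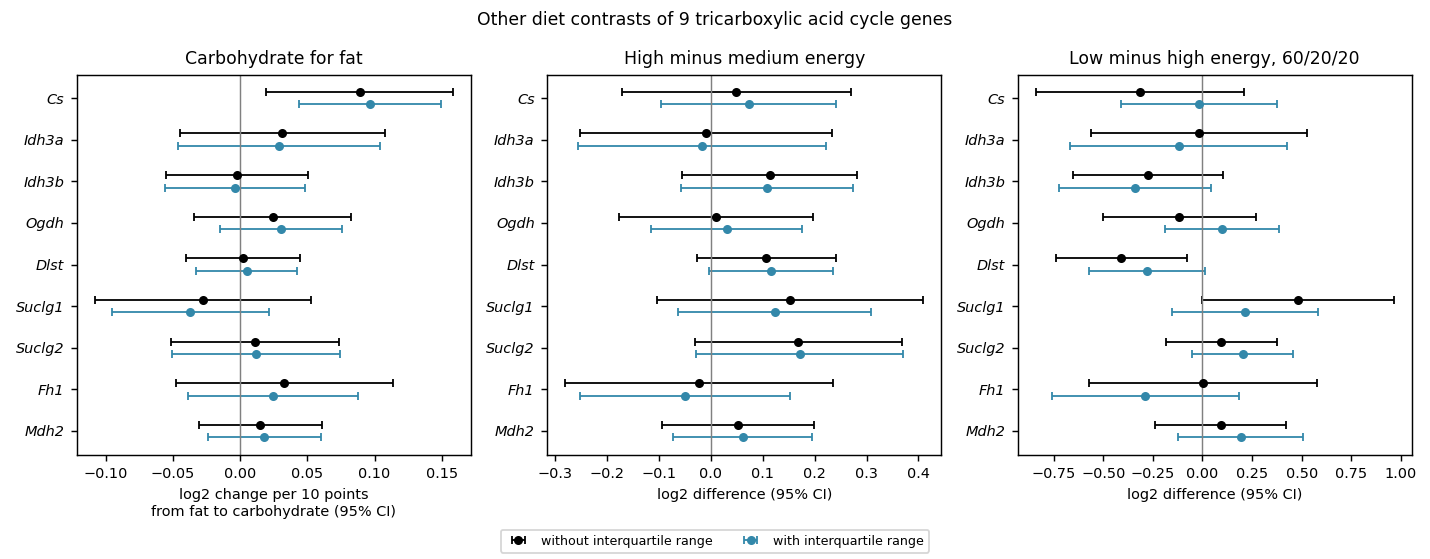
Estimates for the 9 genes with 95% confidence intervals, without the array interquartile range (black) and with it (blue): the carbohydrate for fat slope (left, log2 change per 10 points), high minus medium energy (middle, log2 difference) and low minus high energy at 60/20/20 (right, log2 difference). The interval of Cs excludes 0 in the left panel and that of Dlst in the right panel without the covariate, but neither gene passed after adjustment over all genes (adjusted p = 0.999 and 0.438).

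The protein slope was also compared between high and medium energy, over the 43 mice on these levels. The difference of the slopes passed for 0 of 9 members and 0% of genes (limma), with 958 genes and 1 member at an unadjusted p under 0.05. That member was Suclg2, at -0.20 ± 0.085 log2 units per 10 points (SE, n = 43; unadjusted p = 0.0249, limma adjusted p = 0.872), and without the medium energy 14/29/57 mouse the difference was -0.0031. For Fh1 the difference was -0.12 ± 0.12 (SE, n = 43; limma adjusted p = 0.977), with a confidence interval from -0.35 to 0.11.

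The 9 genes did not vary as a unit over the mice. Of their 36 pairs, 22 correlated positively, and 12 positive and 4 negative pairs passed a permutation test of r after adjustment over the 36 (10 and 3 by rank). The median r was 0.13. Without the medium energy 14/29/57 mouse it was 0.043, and 19 of the 36 pairs were positive. In deviations from the mean of each diet combination, over 44 mice, it was 0.022, and 18 pairs were positive. Such counts were not made for other pairs of genes, so they cannot be called particular to the members. Suclg1 and Fh1 were the most alike, at r = 0.66 and rho = 0.63 (permutation p = 1e-05 for both, adjusted 0.00036 and 0.00018), with r = 0.63 without the 2 mice of most extreme Suclg1 and 0.66 and 0.65 in the blocks of mouse number under and over 300. Idh3a and Fh1 correlated at r = 0.55 and rho = 0.59 (permutation p = 3e-05 and 1e-05, adjusted 0.00048 and 0.00018), with r = 0.50 without the 2 extreme mice and 0.44 and 0.80 in the blocks. Ogdh and Mdh2 formed another pair, at r = 0.57 and rho = 0.53 (permutation p = 4e-05 and 0.00014, adjusted 0.00048 and 0.00101), with r = 0.53 without the 2 extreme mice and 0.50 and 0.70 in the blocks.

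Cs ran opposite to Suclg1 and Fh1. With Suclg1 it had r = -0.45 and rho = -0.56 (permutation p = 0.00127 and 8e-05, adjusted 0.00635 and 0.00072), r = -0.41 without the 2 extreme mice, and -0.36 and -0.72 in the blocks. With Fh1 it had r = -0.45 and rho = -0.49 (permutation p = 0.00141 and 0.00055, adjusted 0.00635 and 0.0033), r = -0.39 without the 2 extreme mice, and -0.29 and -0.75 in the blocks. In the residuals of the model with diet and array spread, r was 0.050 for Cs with Suclg1, -0.20 for Cs with Fh1, 0.33 for Suclg1 with Fh1, 0.39 for Idh3a with Fh1 and 0.42 for Ogdh with Mdh2. In deviations from the mean of each diet combination, where the array spread was not taken out, these r were -0.62, -0.75, 0.46, 0.57 and 0.52. The subunits of 1 enzyme were not always close: Idh3a and Idh3b had r = 0.17 and rho = 0.25 (permutation p = 0.256 and 0.0869, adjusted 0.354 and 0.149), with r = 0.10 without the 2 extreme mice and 0.10 and 0.37 in the blocks. Suclg1 and Suclg2 had r = 0.42 and rho = -0.050 (permutation p = 0.0156 and 0.734, adjusted 0.0351 and 0.801), with r = -0.10 without the 2 extreme mice and 0.47 and 0.0036 in the blocks. Their positive r rested on the medium energy 14/29/57 mouse, without which it was -0.091. In the residuals of the model with diet and array spread they had r = 0.74 over all 48 mice, the highest of the 36 pairs. In deviations from the mean of each diet combination, to which that mouse, alone in its combination, adds nothing, r was -0.23.

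**Figure D5:**
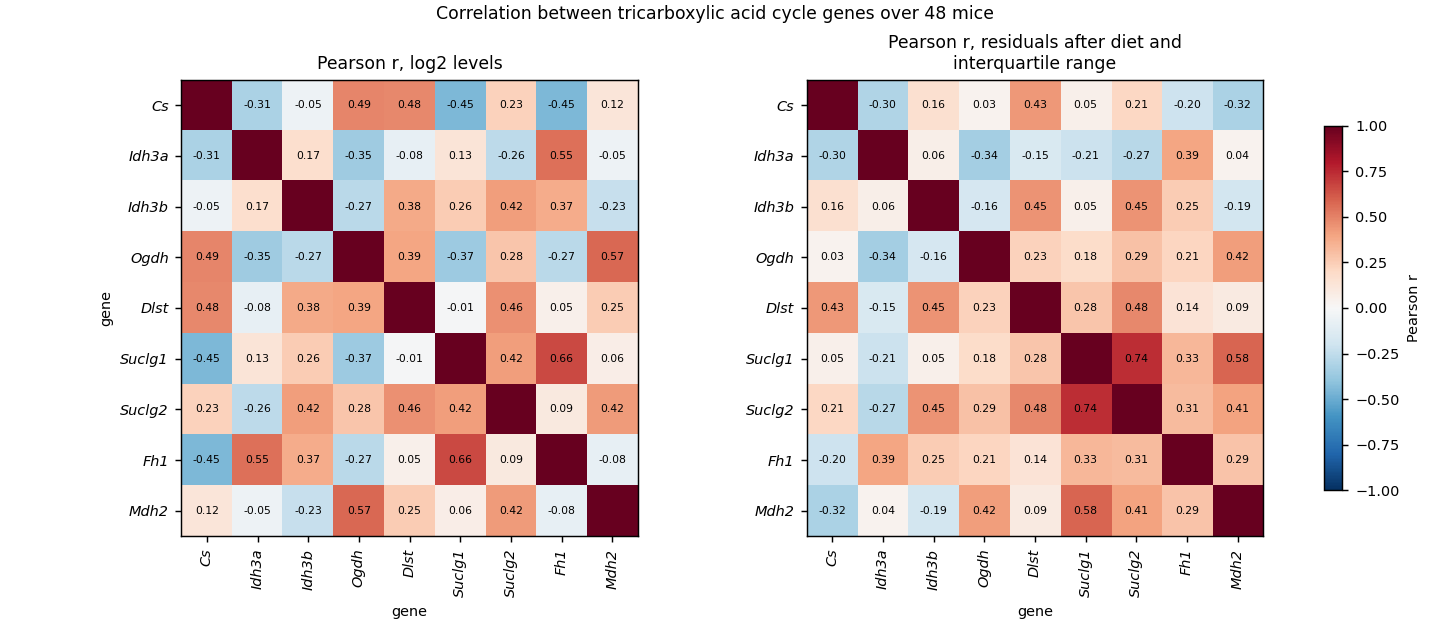
Pearson r between the 9 genes over 48 mice, from the log2 levels (left) and from the residuals of the model with diet and array interquartile range (right), on a colour scale from -1 to 1 with each value printed in its cell. On the left Suclg1 and Fh1 pair at 0.66 and both are negative with Cs (-0.45), and on the right the pair of Cs and Suclg1 is at 0.050.

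Outside the 9 genes, the 2 with the highest Pearson r over the 48 mice are given for each member as a description, with no test. All genes of an array share its spread. For Fh1 these were Cth, which makes cysteine from cystathionine, at r = 0.88, and Acmsd, an enzyme of tryptophan breakdown, at r = 0.87. For Suclg1 they were Pmpcb, a subunit of the mitochondrial processing peptidase, at r = 0.91, and Dld at r = 0.89. For Ogdh they were Sec16a (r = 0.87) and Huwe1 (r = 0.87), and for Cs Gata4 (r = 0.77) and Prkaca (r = 0.77). Idh3a was nearest to Sult1d1 (r = 0.73) and Timm23 (r = 0.73), Idh3b to Cd59a (r = 0.77) and Rnf5 (r = 0.77), and Dlst to Ttc38 (r = 0.76) and Thap6 (r = 0.73). Mdh2 was nearest to Hspa9, a mitochondrial chaperone, at r = 0.76, and to Abcb4 at r = 0.69. For Suclg2 the genes were Serpina6 and Cyp2d26, both at r = 0.89, but their rho was 0.52 and 0.60, the widest gap between the 2 measures among these 18 pairs.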

How the data were processed

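Total RNA of 48 livers was extracted with a Qiagen kit and labelled with biotin by the Affymetrix protocol, per the labels' protocols. The table deposited by the authors holds 1 value per array for each of 41345 probe sets. These values, deposited by the authors after a background correction and normalization not given in the sources used here, were taken as log2 levels because they ran from -0.51 to 13.42. They were used as they stood, and the number of arrays limits the precision. Names came from the platform annotation: 23521 probe sets had 1 symbol, and the 1814 with several were left out. A gene was tested where its mean exceeded 1.17, the 30th percentile of probe set means.

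Groups came from the labels. limma 3.58.1 (lmFit, eBayes with trend) in R 4.3.3 fitted the protein share, the carbohydrate minus fat share and the energy level. For 60/20/20, low was set against high energy in a cell-means model of the 20 combinations, and the product of protein and energy level gave the difference of slopes. Tests were two-sided, adjusted by Benjamini-Hochberg over all 16926 genes, with a threshold of 0.05. Correlations used 100000 permutations. All 9 members are named. Of each pathway list, up to 4 genes past the threshold with the smallest p are named, or the 2 smallest where none passed. Genes most like a member are the 2 of highest r. Members, lists and tests were chosen with earlier results of these data known. Motifs were searched in RefSeq windows, and the CCAAT box was added after the other 4 motifs had been counted. The letters of NRF1 were shortened after a longer form had matched 0 members. The genes Col1a1, Got2, Slc25a12 and Slc25a13 fall outside these rules and were named after their values were seen. The fits were tested on simulated data. Alternatives varied the normalization, array weights, filter, probe set rule, covariates, protein scale or mice, and those chosen after seeing the data are named as such in the closing section.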

Additional observations from a re-analysis of the deposited data

Results flagged for a closer look

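The level of Suclg2 in 1 of the 4 mice on high energy 14/29/57 was 10.35, far from the 9.86, 9.91 and 9.91 of the others, with a gap of 0.893 of the range of the group. It was the highest Suclg2 level of all 48 mice. Over 27 combinations of gene and group with 4 mice this was the 1 outlier by Dixon's ratio, and chance gives about 1 in 20.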

How the results depend on the processing

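Fh1 rose with protein and passed under every alternative run but 1, the omission of the 10 mice on 5% protein (limma adjusted p = 0.0754 there, and between 1.26e-05 and 0.00561 under the others). That omission, the replacement of carbohydrate or fat alone, and the omission of the medium energy 14/29/57 mouse were chosen after seeing the data. The protein slope was called for 1 of 9 members and 1187 genes. Members called were 3 with array weights, 2 with the log2 of the protein share, 0 without the 5% protein diets and 1 to 3 when each mouse was left out in turn. Those called with array weights beside Fh1 were Idh3a and Suclg1, with slopes of 0.10 and 0.11 (limma adjusted p = 0.0211 and 0.00665). Genes called were 113 with the interquartile range as a covariate, 195 with it and without the medium energy 14/29/57 mouse, 4301 with array weights, 334 without the 12 arrays of smallest interquartile range, 630 with the diet combination as a random block, 3652 with the log2 of the protein share, 263 and 719 when protein replaced carbohydrate or fat alone, and 14 without the 5% protein diets. Leaving out each mouse gave 588 to 3004. It moved the count beyond 1.5 times for replicates 1, 2 and 3 of high energy 60/20/20 (2147, 3004 and 620), both mice of high energy 5/20/75 (726 and 743), replicates 1, 3 and 4 of high energy 5/48/48 (784, 778 and 758) and the high energy 42/29/29 mouse (588).

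Where the count was 0, array weights gave 2 genes for the carbohydrate for fat slope and 12 for low against high energy, high energy diets alone gave 1 for the carbohydrate for fat slope, the Y-linked minus Xist value gave 2 for high against medium energy, and the omission of the 12 arrays gave 1 for high against medium and 39 for low against high energy. Leaving out each mouse gave 0 to 3 genes for high against medium energy (3 without replicate 1 of medium energy 23/38/38, and 1 without each of 6 other mice, among them replicate 3 of that group and replicate 1 of low energy 60/20/20) and 0 to 5 for low against high energy (5 without replicate 3 and 1 without replicate 2 of low energy 60/20/20). None of these settings called a member.

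Sign changes, all of uncalled members, were 56. For the protein slope, the interquartile range gave 0.034 for Cs, 0.033 for Ogdh and 0.019 for Mdh2, and without the medium energy 14/29/57 mouse as well 0.030 for Cs, 0.027 for Ogdh, -0.0076 for Suclg2 and 0.014 for Mdh2. Suclg2 was at -0.0030 after quantile normalization, -0.011 after centring, -0.017 with array weights, -0.030 in high energy diets, -0.0024 for carbohydrate alone and -0.023 without that mouse. Fat alone gave 0.016 for Cs and 0.0022 for Mdh2, the omission of the 12 arrays 0.0089 for Ogdh and 0.0082 for Mdh2, and that of the 5% diets 0.023 for Ogdh and 0.039 for Mdh2. Leaving out each mouse gave -0.014 to 0.0011 for Mdh2 and -0.023 to 0.012 for Suclg2.

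For the carbohydrate for fat slope, Dlst was at -0.00089 after quantile normalization, -0.0082 with array weights, -0.0097 without the 12 arrays and -0.0085 in high energy diets, Idh3b at 0.00043 after centring, Suclg1 at 0.0020 without the 12 arrays, and Suclg2 at -0.022 with array weights and -0.025 in high energy diets. Leaving out each mouse gave -0.0046 to 0.0088 for Dlst, -0.013 to 0.0079 for Idh3b and -0.019 to 0.029 for Suclg2. For high against medium energy, Ogdh was at -0.0085 after centring, Cs at -0.0064 and Idh3a at 0.037 with array weights, and Idh3a at 0.0027 and Fh1 at 0.00050 with the mouse number block. Leaving out each mouse gave -0.030 to 0.11 for Cs, -0.11 to 0.030 for Fh1, -0.048 to 0.049 for Idh3a and -0.029 to 0.042 for Ogdh.

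For low against high energy, Ogdh was at 0.097 and Fh1 at -0.29 with the interquartile range, Idh3a at 0.055 and Fh1 at -0.027 after quantile normalization, Fh1 at -0.056 after centring, Idh3a at 0.18 with array weights, Fh1 at -0.025 with the Y-linked minus Xist value and -0.22 without the 12 arrays. Leaving out each mouse gave -0.11 to 0.12 for Fh1 and -0.29 to 0.17 for Idh3a. For the difference of slopes, Ogdh was at 0.035 without the 5% diets, and leaving out each mouse gave -0.047 to 0.095 for Cs, -0.026 to 0.11 for Idh3a, -0.068 to 0.042 for Ogdh and -0.26 to 0.025 for Suclg1. The causes were not tested. No paired analysis was possible because the mouse numbers in the labels are not shared between groups. The number of arrays limits what small slopes can show, and 5 mice on low energy and 1 on medium energy 14/29/57 limit the energy contrasts.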
